A study of Mus musculus with 7 samples.

Results

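The Hox genes and 13 related families of developmental transcription factors (Dlx, Lhx, Pou, Pax, the sine oculis genes Six2 to Six6, Nkx, Emx, Otx, Irx, Meis, Pbx, Msx and Gsx) were examined in serially transplanted mouse gliomas. Members were taken by gene symbol, with Otx2, Pax2, Pax5, Pou3f4, Pou4f1 and Nkx2-2 left out, and 107 of the 18193 genes with a single-symbol probe matched. Of these, 100 were protein-coding genes and 7 were antisense RNAs of the same loci (Dlx1as, Dlx6os1, Dlx6os2, Hoxd3os1, Otx2os1, Pax6os1 and Six3os1). One of the 100, Pou2af1, encodes a coactivator of POU proteins and not a POU protein. Where a gene had several probes, the one whose mean over all arrays was highest was used.

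The tumours began as early-onset, low-grade gliomas of C57/Bl6 cells that overexpressed the growth factor PDGF-B together with EGFP from 1 bicistronic transcript. Primary glioma cells grafted into NOD/SCID mice, a strain without functional B and T lymphocytes, gave the secondary gliomas (n = 4), and cells of secondary gliomas grafted again into NOD/SCID mice gave the tertiary gliomas (n = 3). Both groups therefore share the transgene, the cell strain and the host strain, and differ in the number of transplants. RNA came from EGFP-positive cells collected by flow sorting from dissociated tumours at the onset of symptoms. The labels call the samples biological replicates, but name neither the donor tumour nor the host of any sample nor the host's age, so p-values measure the spread between these samples only. Values are log2 expression after RMA, a normalization that brings all arrays to 1 common distribution, and the array medians lay between 5.57 and 5.64. With 7 arrays the precision is limited.

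Homeobox genes encode transcription factors that bind DNA through the homeodomain. Hox genes lie in clusters and give cells of the hindbrain, spinal cord and trunk their position along the body axis, and Meis and Pbx proteins are their DNA-binding partners. Dlx, Gsx, Emx, Lhx, Otx, sine oculis, Pax, Nkx and Irx genes mark regions of the embryonic brain and neural tube, and POU factors of class III are made in neural progenitors and glial precursors. Pax proteins bind DNA through a paired domain, and some of them lack a full homeodomain.

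The sequences upstream of the start of 5 members are shown because the results turn on them. Pou2f2 is the member that fell, and Pbx2 is the tested member most like it over the arrays. Gsx2 was dim in every secondary glioma, and Hoxa2 and Hoxa3 were high in 1 tumour. The sequences are the 250 bases before the RefSeq start (assembly GRCm38.p6), read 5′ to 3′ on the gene's strand. Each CpG dinucleotide is in capitals. Pou2f2 is shown at chr7:25132461-25132710 (minus strand) and Pbx2 at chr17:34592009-34592258 (plus strand). Gsx2 is shown at chr5:75075351-75075600 (plus strand). The Hoxa cluster genes are shown at chr6:52164832-52165081 for Hoxa2 and chr6:52213068-52213317 for Hoxa3 (both minus strand).
Pou2f2: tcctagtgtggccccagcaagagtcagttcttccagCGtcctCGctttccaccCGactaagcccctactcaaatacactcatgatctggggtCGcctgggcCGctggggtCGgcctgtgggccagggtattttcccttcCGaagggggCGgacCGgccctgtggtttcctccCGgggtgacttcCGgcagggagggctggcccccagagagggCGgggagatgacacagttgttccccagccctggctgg
Pbx2: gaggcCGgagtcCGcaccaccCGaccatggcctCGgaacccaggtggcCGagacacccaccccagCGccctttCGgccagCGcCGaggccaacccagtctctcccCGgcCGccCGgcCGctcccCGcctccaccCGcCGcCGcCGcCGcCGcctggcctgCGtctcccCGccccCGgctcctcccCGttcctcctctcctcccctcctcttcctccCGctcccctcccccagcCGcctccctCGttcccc
Gsx2: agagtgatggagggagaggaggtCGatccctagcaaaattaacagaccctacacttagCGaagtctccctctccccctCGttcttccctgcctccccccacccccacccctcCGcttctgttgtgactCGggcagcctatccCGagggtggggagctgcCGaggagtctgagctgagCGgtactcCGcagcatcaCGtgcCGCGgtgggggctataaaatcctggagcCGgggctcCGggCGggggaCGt
Hoxa2: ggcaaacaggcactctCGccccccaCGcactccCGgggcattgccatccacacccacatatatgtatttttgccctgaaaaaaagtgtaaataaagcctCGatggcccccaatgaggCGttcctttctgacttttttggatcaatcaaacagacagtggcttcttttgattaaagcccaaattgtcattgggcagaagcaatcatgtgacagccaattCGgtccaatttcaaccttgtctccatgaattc
Hoxa3: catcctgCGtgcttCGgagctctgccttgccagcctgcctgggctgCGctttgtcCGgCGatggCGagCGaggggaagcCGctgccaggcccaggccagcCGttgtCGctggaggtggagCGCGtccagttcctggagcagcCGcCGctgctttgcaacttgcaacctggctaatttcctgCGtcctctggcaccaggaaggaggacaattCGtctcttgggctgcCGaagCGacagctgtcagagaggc

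These stretches held 12 CpG in Pou2f2, 27 in Pbx2, 16 in Gsx2, 6 in Hoxa2 and 18 in Hoxa3. RefSeq entries were at hand for 74 of the 107 members, whose median was 14.5 CpG in the 250 bases, against 6 over 27025 genes. The Meis core TGACAG, searched on both strands, was present in 14 of the 74 members (18.9%) and in 18.0% of all genes. Both Hoxa2 and Hoxa3 held it, starting 44 and 13 bases before the start. Gsx2 held TATAAA, searched on the gene's own strand, 38 bases before its start, as did 6.76% of members and 8.94% of all genes. The octamer ATGCAAAT, the classical site of POU factors, was found on either strand in 0 of 74 members and in 1.81% of all genes, and TAATTA, a core shared by many homeodomains, in 5.41% and 5.65%. Matches of letters are a description of these windows only.

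The labelled cell type was checked first, since bulk samples cannot tell fewer cells of a type from less RNA per cell. The precursor and glioma genes Olig2, Pdgfra and Sox10 had values between 9.65 and 11.15 in the 7 samples, and 0 of 14 tested genes of that marker list passed (limma, 1 with an unadjusted p under 0.05). Of 19 microglia and macrophage markers, 18 fell and 0 rose. Their mean value was 9.73 to 10.51 in secondary and 5.76 to 6.57 in tertiary gliomas. Of the oligodendrocyte markers 3 of 9 fell (Mog, Mag and Ermn). An unadjusted p under 0.05 was reached by 8 of the 9 (limma), and all 9 had log2 fold changes below 0. Of the granulocyte and monocyte markers 3 of 5 fell, and 4 had an unadjusted p under 0.05 (limma). Over all genes 6.33% fell. None passed (limma) among 15 neuron, 10 astrocyte, 7 endothelial and 5 ependymal markers, of which 2, 2, 3 and 0 had an unadjusted p under 0.05, and 1 of 10 pericyte and fibroblast markers fell. The markers that fell did so with the number of transplants, and their part in the differences of homeobox genes was not tested.

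Most Hox genes gave signals near the bottom of the scale, whereas several POU genes gave signals far above it. A gene was tested when its mean reached 3.99 on the log2 scale, which 25% of the probes on the array do not reach and which is called the dim filter here. Of the 107 members 60 reached it (56.1%), against 79.4% of all genes. Of the 33 Hox genes 12 were tested (36.4%), and of the 67 other protein-coding members 47 (70.1%). Means of the Hox genes ran from 1.50 for Hoxd1 to 6.17 for Hoxc9. The antisense RNAs were tested in 1 of 7 cases, Otx2os1. Of the 47 members left out, 36 lay under the dim filter on every array and 11 exceeded it on at least 1. Levels of different probes are not amounts of RNA that can be set against each other, because probes differ in how well they bind.

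**Figure D1:**
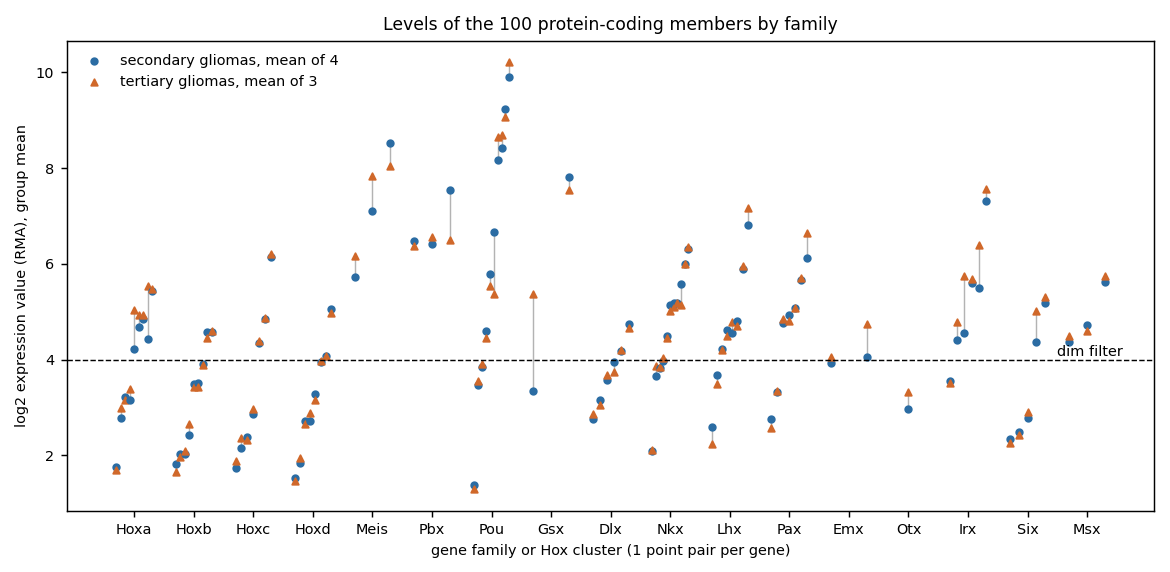
Each pair of points is 1 of the 100 protein-coding members, with its log2 value as the mean of 4 secondary gliomas (circles) and of 3 tertiary gliomas (triangles), by family or Hox cluster on the horizontal axis. The dashed line is the dim filter at 3.99. Several Pou genes lie far above it, and 21 of the 33 Hox genes lie under the filter.

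Many dim members had exactly the same value on several arrays. At least 3 arrays held an identical value in 34 of the 107 members (31.8%), against 13.6% of all genes. Of those 34 genes, 21 were among the 47 untested members and 13 among the 60 tested ones. Over all genes, such values were held by 36.3% of the untested and 7.76% of the tested. Closest above the filter stood Nkx2-5, Hoxd9 and Dlx1, with means of 4.00, 4.08 and 4.18. Closest below stood Emx1, Hoxd13 and Hoxb4, with means of 3.98, 3.96 and 3.89. The Six3os1 antisense RNA, also untested, ranged from 2.28 to 4.16.

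Between tertiary and secondary gliomas 1 of the 60 tested members fell, Pou2f2 (1.67%), and 0 rose (limma, adjusted p under 0.05 over all 14453 genes tested). Over all genes tested, 6.33% fell and 1.04% rose. An unadjusted p under 0.05 was reached by 6 members (10.0%), 4 lower and 2 higher, against 23.8% of all genes. Groups did not overlap in 6 members (10.0%), against 21.9% of all genes. A log2 difference of at least 1 in either direction was seen in 5 members (8.33%), close to the 8.82% of all genes. Gsx2 is in the counts by unadjusted p, overlap and size, and reached the filter only through its tertiary values.

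The median log2 fold change of the tested members was 0.04, and that of all genes tested was 0.09. Of the 60, 35 had a value above 0 and 25 below (41.7%), where 5688 of all 14453 genes tested lay below 0. In 39 of the 60 it was smaller than 0.25 in either direction. The share of changes this small over all genes was not computed. Standard errors ranged from 0.11 to 0.67, with a median of 0.16, so the precision differed widely between members. Adjusted p values of the other 59 lay between 0.0677 and 0.99.

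**Figure D2:**
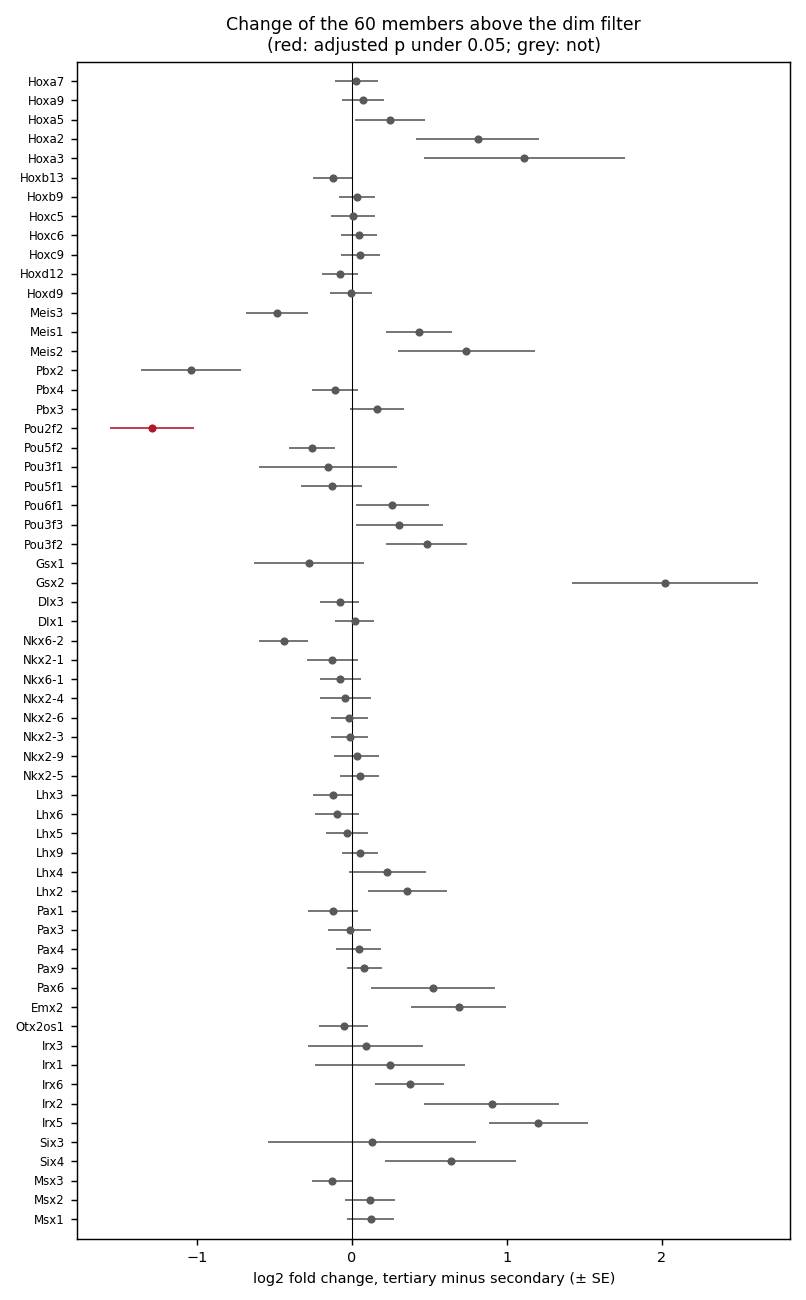
Log2 fold change (tertiary minus secondary, horizontal axis) of each of the 60 tested members, with bars of ± 1 standard error from limma. Pou2f2 (red) is the member with an adjusted p under 0.05, and the widest bars belong to Six3, Hoxa3 and Gsx2.

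Pou2f2 encodes Oct-2, a POU factor that binds the octamer and is best known from B lymphocytes. Its values were 6.32, 6.51, 7.35 and 6.44 in secondary gliomas 1 to 4 and 5.16, 5.23 and 5.71 in tertiary gliomas 1 to 3. Every tertiary value lay below every secondary one, with 0.61 between the groups, and secondary glioma 3 stood highest. The group means were 6.66 ± 0.47 (SD, n = 4) and 5.37 ± 0.30 (SD, n = 3), and the log2 fold change was -1.29 ± 0.27 (SE, limma, adjusted p = 0.0292). The other two Pou2f2 probes were also lower on average in tertiary gliomas, by log2 differences of -0.50 and -0.92, and did not pass when each probe was tested on its own (limma, adjusted p = 0.269 and 0.174).

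The call of Pou2f2 rested on single samples and on the choice of probe. It passed without secondary glioma 1, secondary glioma 3 or tertiary glioma 3 (limma, adjusted p = 0.0371, 0.0205 and 0.0481). It did not pass without secondary glioma 2 or 4 or tertiary glioma 1 or 2 (limma, adjusted p = 0.0657, 0.0579, 0.0565 and 0.115), with log2 fold changes between -1.36 and -1.18. The mean of its probes gave -0.90 (limma, adjusted p = 0.0871). Leaving out both secondary glioma 3 and tertiary glioma 2, a choice made after seeing the data, gave -0.99 (adjusted p = 0.0814).

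The remaining POU genes are known from neural progenitors, glia and the early embryo. Pou3f3 (Brn1), a class III factor of cortical progenitors, had values of 10.18, 10.16, 9.13 and 10.18 in secondary and 10.17, 10.43 and 10.04 in tertiary gliomas. Pou3f2 (Brn2), its close relative, had 8.38, 8.32, 7.65 and 8.36 in secondary and 8.71, 8.20 and 9.07 in tertiary gliomas. Both genes were lowest in secondary glioma 3, and their groups overlapped. Their log2 fold changes were 0.30 ± 0.28 and 0.48 ± 0.26 (SE, limma, adjusted p = 0.547 and 0.305). The other Pou3f2 probes had differences of -0.15 and 0.59, and the former was lowest in tertiary glioma 2.

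Pou3f1 (Oct6), which marks precursors of myelinating cells, had 9.67, 9.70, 8.29 and 9.24 in secondary and 9.39, 8.20 and 9.63 in tertiary gliomas. One sample of each group was low, secondary glioma 3 and tertiary glioma 2, and the remaining values were above 9. Between the groups Pou3f1 differed by a log2 fold change of -0.15 ± 0.45 (SE, limma, adjusted p = 0.868). Pou6f1, a class VI factor of the nervous system, had 8.41, 8.85, 8.11 and 8.36 against 9.14, 8.43 and 8.50, and its groups overlapped. Pou5f1 (Oct4), a factor of pluripotent cells, was dim, with means of 4.59 and 4.46, and its relative Pou5f2 had a log2 fold change of -0.26 ± 0.15 (SE). Pou2f3, Pou4f3 and Pou2af1 lay under the dim filter.

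Pbx2, which pairs with Hox and Meis proteins on DNA, had values of 7.05, 7.62, 8.23 and 7.24 in secondary and 6.03, 6.51 and 6.97 in tertiary gliomas. The groups did not overlap, by 0.09, and the log2 fold change of -1.04 ± 0.33 did not pass (SE, limma, adjusted p = 0.109). The probe behind these values may also hybridise to transcripts of other genes by its design class, and the remaining Pbx2 probes, which are not of that class, had differences of -0.61 and -0.16. Pbx3 and Pbx4, from the same family, had log2 fold changes of 0.16 ± 0.18 and -0.11 ± 0.15 (SE). The other Pbx4 probe went the opposite way, by 0.48 and without overlap of the groups. It did not pass on its own (limma, adjusted p = 0.172).

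Among the tested members, Pbx2, read by that same probe, was the gene most like Pou2f2 over the 7 arrays (Pearson r = 0.96). Hoxd12 (0.77) and Dlx3 (0.74) followed. These are descriptions over arrays that include the group difference. Within the secondary gliomas Pou2f2, Pbx2 and the mean of the microglia and macrophage markers had 1 order, with glioma 3 highest and glioma 1 lowest. The marker means there were 9.73, 9.99, 10.51 and 9.88. In the tertiary gliomas the marker means were 6.23, 6.57 and 5.76, and glioma 3, with the lowest marker mean, had the highest Pou2f2 and Pbx2 values. Of 6 tested lymphocyte markers 0 passed (limma), and 0 had an unadjusted p under 0.05. The B cell genes Cd79a and Cd79b had means of 4.71 and 4.21 in secondary and 4.68 and 3.87 in tertiary gliomas. Both were highest in secondary glioma 3, where Pou2f2 was also highest. Cd79b was 4.95 there against 3.95 to 3.98 in the other secondary gliomas, and Cd79a 4.89 against 4.58 to 4.68. The part of these cell types in the values of Pou2f2 and Pbx2 was not tested.

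**Figure D3:**
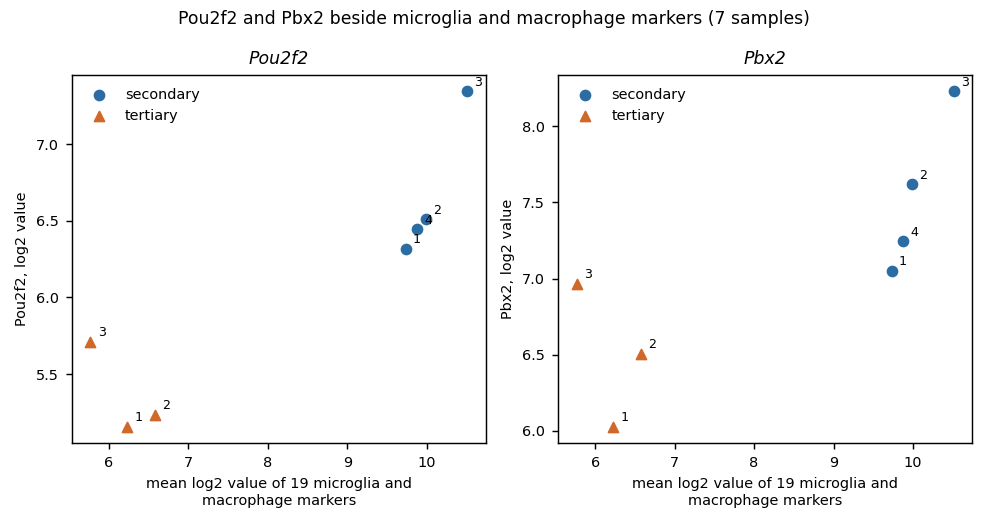
The log2 value of Pou2f2 (left) and Pbx2 (right) is plotted against the mean log2 value of 19 microglia and macrophage markers, with 1 point per sample and its replicate number. Secondary gliomas (circles) have marker means of 9.73 to 10.51 and tertiary gliomas (triangles) of 5.76 to 6.57, with tertiary glioma 3 lowest on the horizontal axis and highest of its group on both vertical axes.

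The Meis genes, partners of Hox and Pbx proteins, were all bright enough to test. Meis3 had values of 8.24, 8.79, 8.78 and 8.32 in secondary and 8.32, 7.97 and 7.87 in tertiary gliomas, with 1 tertiary value inside the secondary range. Its log2 fold change was -0.48 ± 0.20 (SE, limma, adjusted p = 0.195). Meis2 had 7.31, 7.44, 5.81 and 7.85 against 7.86, 7.94 and 7.73, with secondary glioma 3 lowest. Its log2 fold change was 0.74 ± 0.44 (SE, limma, adjusted p = 0.345), and 0.31 without that sample (adjusted p = 0.397). All 4 Meis2 probes were lowest in secondary glioma 3. Meis1 had 5.94, 5.35, 5.62 and 6.02 against 6.48, 6.08 and 5.94, a log2 fold change of 0.43 ± 0.21 (SE, limma, adjusted p = 0.259).

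The Gsx genes pattern the progenitors of the ventral forebrain. Gsx2 had values of 3.80, 2.56, 3.13 and 3.90 in secondary and 4.04, 6.67 and 5.40 in tertiary gliomas. All secondary values lay under the dim filter and all tertiary values above it, with 0.14 between the groups and tertiary glioma 2 highest. Gsx2 passed the filter only through its tertiary values, so its log2 difference of 2.02 ± 0.60 (SE) is a description, set against a group below the filter.

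Gsx1 had values of 8.36, 7.95, 7.04 and 7.91 in secondary and 7.79, 6.92 and 7.91 in tertiary gliomas, so the groups overlapped. Its lowest values were in secondary glioma 3 and tertiary glioma 2, the samples that were also lowest for Pou3f1. For Gsx1 this gave a log2 fold change of -0.28 ± 0.35 (SE, limma, adjusted p = 0.676).

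The Iroquois genes divide the neural tube into domains, and all 5 tested had log2 fold changes above 0 without passing the test. Of all 14453 genes tested, 5688 lay below 0. Irx5 had 5.03, 4.54, 4.81 and 3.81 in secondary and 6.09, 5.28 and 5.88 in tertiary gliomas. These groups did not overlap, by 0.25, and secondary glioma 4 was lowest. Irx5 had a log2 fold change of 1.20 ± 0.32 (SE, limma, adjusted p = 0.0677).

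Irx2 was even among the secondary gliomas, at 5.30, 5.51, 5.61 and 5.54, and uneven among the tertiary ones, at 5.25, 7.39 and 6.54. Tertiary glioma 1 lay at the secondary level and the other two above it. The log2 fold change was 0.90 ± 0.43 (SE, limma, adjusted p = 0.252) and reached 1.47 without tertiary glioma 1 (limma, adjusted p = 0.0134). That step removes the tertiary sample that lay at the secondary level. The same step took calls over all genes from 1066 to 1857. Irx1 ranged more widely within both groups, with 8.06, 7.17, 7.53 and 6.52 against 6.54, 7.87 and 8.29, and its log2 fold change was 0.25 ± 0.48 (SE, limma, adjusted p = 0.796). Irx3 and Irx6 had 0.09 ± 0.37 and 0.37 ± 0.22 (SE), and Irx4 lay under the dim filter.

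**Figure D4:**
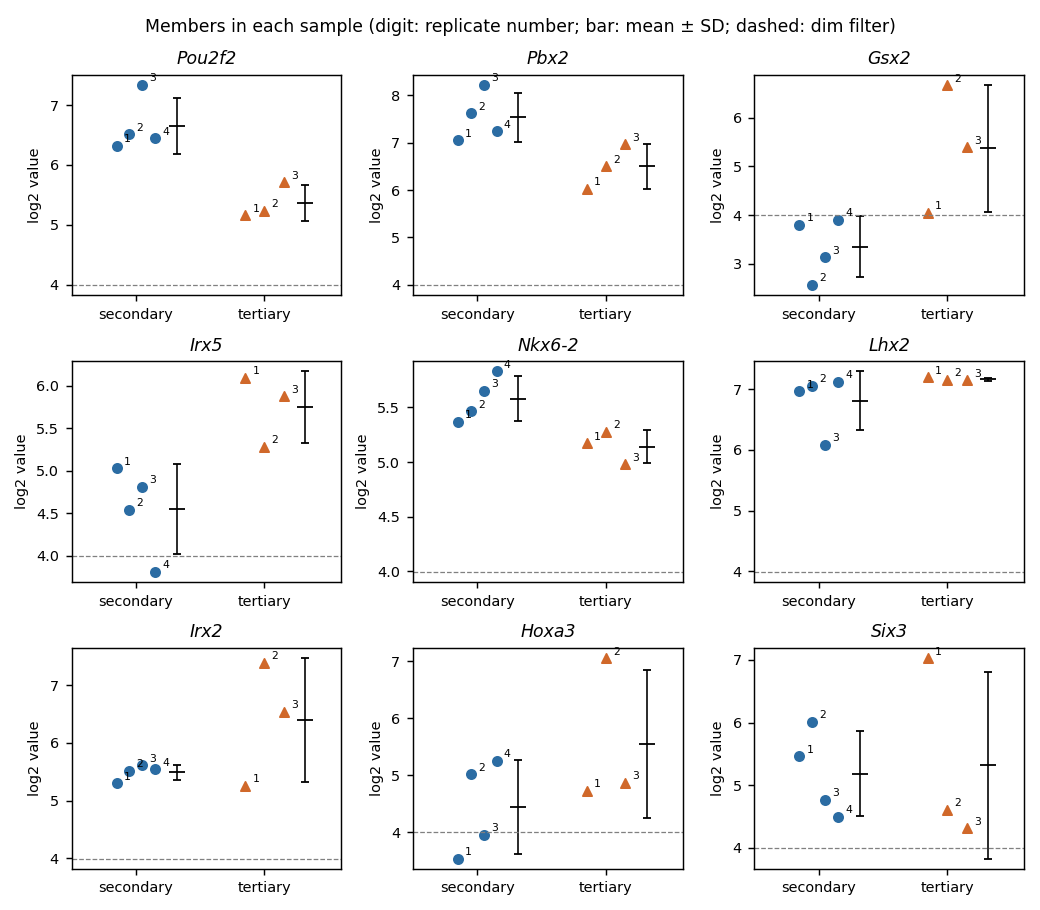
Log2 values of 9 members in each sample, with the replicate number beside each point, secondary gliomas as circles and tertiary gliomas as triangles, and the group mean ± SD as a bar. The dashed line is the dim filter, and each vertical axis has its own range. The groups do not overlap for Pou2f2, Pbx2, Gsx2, Irx5, Nkx6-2 and Lhx2, whereas for Hoxa3 and Six3 1 tertiary glioma stands above the rest, and for Irx2 tertiary gliomas 2 and 3 do.

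Of the 12 tested Hox genes 0 fell and 0 rose (limma), where 6.33% and 1.04% of all genes did, so that few calls or none in 12 genes is near the background. An unadjusted p under 0.05 was reached by 0 of the 12, against 23.8% of all genes, and groups did not overlap in 0, against 21.9%. Their log2 fold changes ran from -0.12 to 1.11, and adjusted p values lay between 0.26 and 0.99 (limma). Of the 12, 10 changed by less than 0.25 in either direction, a share not computed over all genes. In the Hoxb, Hoxc and Hoxd clusters the members with the lowest p were Hoxb13, Hoxc9 and Hoxd12, genes of the posterior trunk. Their log2 fold changes were -0.12 ± 0.13, 0.06 ± 0.13 and -0.08 ± 0.12 (SE).

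The anterior Hoxa genes stood apart in tertiary glioma 2. Hoxa2, which patterns the hindbrain, had 4.01, 4.13, 4.35 and 4.38 in secondary and 4.35, 6.13 and 4.59 in tertiary gliomas. Hoxa3, its neighbour in the cluster, had 3.53, 5.01, 3.95 and 5.25 against 4.72, 7.05 and 4.86. Tertiary glioma 2 was the highest sample for both, and the other tertiary values were close to or inside the secondary range. Neither passed between the groups, with log2 fold changes of 0.81 ± 0.40 and 1.11 ± 0.65 (SE, limma, adjusted p = 0.26 and 0.336).

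Hoxa4, Hoxa5 and Hoxa7, the next genes along the cluster that were analysed, were also highest in tertiary glioma 2, at 3.75, 5.33 and 5.70. For Hoxa5 a second probe, below the dim filter on average, had 2.82, 2.39, 3.05 and 3.32 in secondary and 3.05, 5.51 and 3.67 in tertiary gliomas. Hoxa9, Hoxa10 and Hoxa11 were not highest there. The Hoxa3 probes did not all behave alike: 2 dim ones were highest in tertiary glioma 2, while another was highest in tertiary glioma 1.

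**Figure D5:**
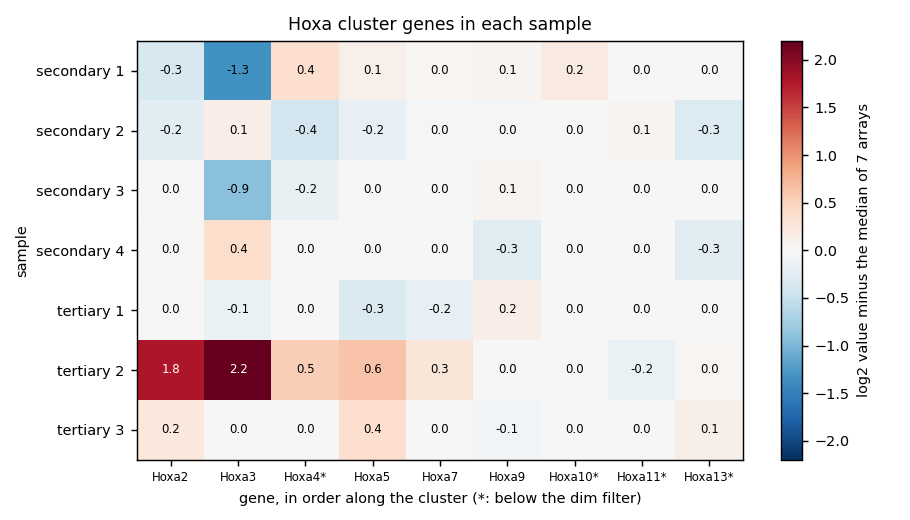
Each cell is the log2 value of 1 Hoxa gene in 1 sample minus that gene's median over the 7 arrays, with genes ordered along the cluster and an asterisk for genes under the dim filter. Tertiary glioma 2 shows the largest values, at Hoxa2 and Hoxa3, whereas Hoxa9 to Hoxa13 stay near 0 in all samples.

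The Nkx genes pattern the ventral neural tube. Nkx6-2, also known from oligodendrocytes, had 5.37, 5.46, 5.65 and 5.83 in secondary and 5.17, 5.28 and 4.98 in tertiary gliomas. Its groups did not overlap, by 0.09, and the log2 fold change of -0.44 ± 0.16 did not pass (SE, limma, adjusted p = 0.149). The other 7 tested Nkx genes had adjusted p values of 0.681 or more, and among them Nkx2-1, a factor of the ventral forebrain, had a log2 fold change of -0.13 ± 0.17 (SE).

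Lhx2, a LIM homeodomain factor of the cortex and eye, had 6.96, 7.05, 6.08 and 7.12 in secondary and 7.19, 7.15 and 7.15 in tertiary gliomas. The groups did not overlap by 0.02 only, and secondary glioma 3 was about 1 log2 unit below all others. The log2 fold change was 0.36 ± 0.26 (SE, limma, adjusted p = 0.433). The other 5 tested Lhx genes had log2 fold changes from -0.12 for Lhx3 to 0.23 for Lhx4, and Lhx4, a factor of motor neurons and the pituitary, was highest in tertiary glioma 3, at 5.37. Lhx1 and Lhx8 lay under the dim filter.

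The dorsal forebrain genes Emx2 and Pax6 varied within both groups. Emx2 had 3.74, 4.21, 3.57 and 4.68 against 4.77, 4.30 and 5.15, and Pax6 had 6.87, 5.58, 5.62 and 6.40 against 6.07, 6.56 and 7.29. For both genes, by the probes used, the groups overlapped and tertiary glioma 3 was highest. The log2 fold changes were 0.69 ± 0.31 and 0.52 ± 0.40 (SE, limma, adjusted p = 0.223 and 0.46). Another Pax6 probe above the filter had groups without overlap. Its difference was 0.84, and it did not pass on its own (limma, adjusted p = 0.0886). The remaining Pax6 probes above the filter overlapped, with differences of 0.07 and 0.32. Otx1, a gene of the forebrain and midbrain, lay under the dim filter, with a highest value of 4.02 in tertiary glioma 3. The other 4 tested Pax genes had log2 fold changes from -0.12 for Pax1 to 0.08 for Pax9, and Pax7 and Pax8 lay under the dim filter. Of the 6 Dlx genes 2 were tested. Dlx1, a gene of forebrain interneurons, had a log2 fold change of 0.02 and Dlx3, best known from skin and bone, one of -0.08, and Dlx2, Dlx4, Dlx5 and Dlx6 lay under the dim filter on average.

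Six3, a factor of the anterior forebrain and eye, had 5.46, 6.01, 4.77 and 4.50 in secondary and 7.03, 4.61 and 4.31 in tertiary gliomas. Tertiary glioma 1 was highest and tertiary glioma 3 lowest of all 7, so the log2 fold change of 0.13 ± 0.67 had the widest error of the tested members (SE, limma, adjusted p = 0.928). The antisense RNA Six3os1 from the same locus had 3.18, 3.82, 3.31 and 2.47 against 4.16, 2.28 and 2.56. It was also highest in tertiary glioma 1, with secondary glioma 2 next.

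Six4 had 4.31, 4.18, 4.13 and 4.86 in secondary and 3.90, 5.44 and 5.68 in tertiary gliomas. By the probe used, its value in tertiary glioma 1 was the lowest of all samples and those of the other tertiary gliomas were the highest. The remaining Six4 probes, all below the dim filter on average, had differences of 0.62, 0.45 and 0.68. Tertiary glioma 1 was lowest of all samples by the second of these (1.90), not by the first (3.42), and lay above every secondary glioma by the last (2.03). Over all samples Six4 had a log2 fold change of 0.64 ± 0.42 (SE, limma, adjusted p = 0.395), and of 1.19 without tertiary glioma 1 (limma, adjusted p = 0.0235). Leaving that sample out removes the lowest Six4 value, and calls over all genes rose from 1066 to 1857 as well. The Msx genes, targets of BMP signalling in the dorsal neural tube, had log2 fold changes from -0.13 for Msx3 to 0.12 for Msx1. Otx2os1, the tested antisense RNA, had -0.05 ± 0.16 (SE).

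The members that departed most from the other arrays differed between tumours. Those other arrays come from both groups, so a departure includes any difference between the groups. Tertiary glioma 2 was at least 1 log2 unit above the median of the other samples for Gsx2, Hoxa3, Irx2, Hoxa2 and Six4, and at least 1 below it for Pou3f1 and Pou2f2. Tertiary glioma 3 was above for Gsx2, Six4, Pax6 and Irx2, and below for none. Tertiary glioma 1 was above for Six3 and Irx5 and below for Pou2f2, Irx1 and Pbx2. Secondary glioma 3 was above for Pou2f2 and Pbx2 and below for Meis2, Pou3f1, Lhx2 and Pou3f3. Secondary glioma 1 was below for Hoxa3, secondary glioma 2 above for Six3 and below for Gsx2, and secondary glioma 4 below for Irx5 and Irx1. Proliferation markers also varied within the tertiary gliomas, with a mean log2 value of 6.45 in glioma 1, 8.73 in glioma 2 and 8.96 in glioma 3, against 6.81 to 7.69 in secondary gliomas. Of 9 such markers 0 passed (limma), and 0 had an unadjusted p under 0.05. Their part in the members' values was not tested.

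Other homeobox genes and regulators of Hox expression were examined as lists. Of 46 tested homeobox genes of other families 2 fell and 1 rose, where 6.33% and 1.04% of all genes did. Hhex, a factor of blood and endothelial precursors, fell by 3.60 on the log2 scale (SE 0.39, limma, adjusted p = 0.00104) and Zfhx3 by 1.58 (SE 0.23, limma, adjusted p = 0.00464). En2, a midbrain and hindbrain gene, rose by 2.01 (SE 0.43, limma, adjusted p = 0.031), and that call was lost without secondary glioma 1 or 4 or tertiary glioma 2 or 3 (limma, adjusted p = 0.054, 0.0694, 0.124 and 0.115). Of the genes that the selection leaves out, Pou4f1 rose by 2.46 and Pou3f4 by 1.30 (limma, adjusted p = 0.00103 and 0.00787). The secondary values of Pou4f1, at 3.76, 4.00, 4.49 and 3.82, lay near or under the dim filter. Pax5 and Nkx2-2 did not pass, with log2 fold changes of 0.11 and 0.06 (limma, adjusted p = 0.637 and 0.876), and Otx2 lay under the filter.

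Of 38 tested Polycomb and Trithorax genes, which keep Hox clusters silent or active, 0 passed and 9 had an unadjusted p under 0.05 (limma), close to the 23.8% of all genes. Among them Pcgf5 and Pcgf2 had the lowest p, with log2 fold changes of 1.06 ± 0.26 and 0.56 ± 0.15 (SE, limma, adjusted p = 0.0545 and 0.0735). Retinoic acid controls anterior Hox genes, and of 13 tested genes of its pathway 2 fell and 1 rose. The shares over all genes were 6.33% and 1.04%. The part of these genes in the Hox values was not tested. Dhrs3, a retinal reductase, fell by 4.92 and the receptor Rxra by 1.27 (limma, adjusted p = 7.92e-05 and 0.000744). The receptor Rara rose by 0.65 (limma, adjusted p = 0.0392), a call lost when any 1 of the 7 samples was left out (adjusted p between 0.0524 and 0.142). Of 7 tested genes for geminin and other proteins that bind Hox factors 0 passed, and 0 had an unadjusted p under 0.05 (limma). Crebbp and Gmnn had the lowest p there, with log2 fold changes of -0.19 ± 0.11 and 1.09 ± 0.68 (SE).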

How the data were processed

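RNA of 7 sorted glioma samples was amplified and hybridised to Affymetrix mouse arrays, per the labels' protocols. The deposited table holds log2 expression values that the authors made with RMA, per the submitters' processing notes. The range of the values gave the log base, and RMA's version is not given in the sources used. RMA equalises arrays and compresses differences of dim probes, and no detection calls, scan dates or batches were analysed here. All columns matched a sample.

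Of 45101 probes, 34945 carry 1 gene symbol in the platform annotation, which names 18193 genes; 932 carry several symbols and were not used. The probe with the highest mean stood for a gene, and genes whose mean was among the lowest 25% of probe means (under 3.99) were not tested. In 12 of the 16 members with 2 or more probes above the filter, all such probes had differences of the same sign. Tertiary and secondary gliomas were compared with limma 3.58.1 (lmFit and eBayes) in R 4.3.3 over 14453 genes, without covariates, with Benjamini-Hochberg adjustment and a threshold of 0.05. The script was tested on simulated data. No 2 arrays shared more than 5.39% of values, so all counted as separate samples.

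The members and lists were chosen with earlier results of these data known, so no pattern is independent support. The text names the members with a call or without overlap, the lowest p in each family, the 10 highest means, the 10 largest changes, the 5 largest SD in each group, and the 3 nearest the filter on each side. In other lists it names up to 4 called genes, or otherwise the 2 with the lowest p, and always the genes left out by the rule. Meis1, Pou5f1, Pbx3, Pbx4, Irx3, Irx6, Hoxa4, Hoxa5, Hoxa7, Hoxa9, Hoxa10, Hoxa11, Hoxd1, Lhx3, Lhx4, Pax1, Pax9, Pou5f2, Nkx2-1, Msx1, Otx1, Cd79a and members named only as under the filter were added for context after their values were seen. Upstream sequences came from RefSeq tables. Alternatives covered the filter, probe choice, normalization, variance model, array weights, replicate block, threshold and leaving out each sample. Plots used Python 3.11.15 with pandas 2.3.3 and matplotlib 3.10.9. Pax2 was not analysed here.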

Additional observations from a re-analysis of the deposited data

Results flagged for a closer look

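Within the 4 secondary gliomas, 1 sample lay far from the other 3 for 6 of the 34 named members. Secondary glioma 3 was far below the others for Lhx2 (6.08), Pou3f2 (7.65) and Pou3f3 (9.13), and far above them for Dlx3 (4.94) and Hoxd9 (4.29). Secondary glioma 1 was far above the others for Dlx1 (4.34). The values of Dlx1, Dlx3 and Hoxd9 lie near the dim filter of 3.99. Of all 60 tested members 12 had such a sample, which was secondary glioma 3 in 9 of them. Chance flags about 1 in 20 groups of this size when values follow a normal distribution, and members are not independent of each other. The share of such genes over all genes was not computed. Over all genes tested, secondary glioma 3 also had the largest mean absolute deviation from its group mean. It was 0.27, against 0.17 to 0.23 in secondary gliomas 1, 2 and 4. For Hoxd9 those other samples held 1 identical value (4.01), so any departure from it would be flagged. Secondary glioma 3 also had the highest mean of the microglia and macrophage markers (10.51, against 9.73 to 9.99 in the others) and the lowest mean of the precursor and glioma genes (9.19, against 9.58 to 9.85). Their part in these values was not tested.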

How the results depend on the processing

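The count of members that rose (0) became 3 with array weights (Gsx2, Irx2 and Irx5). At an adjusted p under 0.10 it was 2 (Gsx2 and Irx5). It ranged from 0 to 3 when each sample was left out in turn. The 3 were Gsx2, Irx2 and Six4 without tertiary glioma 1. Gsx2 lay below the filter in all secondary gliomas. Calls over all genes, both directions together, rose from 7.38% as well. They were 13.4% with array weights, 11.2% at an adjusted p under 0.10 and 12.8% without tertiary glioma 1. The count that fell (1) became 0 with a gene's probes averaged, 0 with the variance of each gene on its own (where Pou2f2 had an adjusted p of 0.127), and ranged from 0 to 1 when each sample was left out. It was 0 without both secondary glioma 3 and tertiary glioma 2, a choice made after seeing the data. Members above the dim filter numbered 24 with the filter at the 50th percentile of probes. Replicate numbers were not taken as pairs, since the labels do not say that equal numbers share an animal. The deviations of same-numbered samples correlated at 0.04, -0.14 and 0.01, and those of other pairs at -0.24 to 0.27. With so few samples these correlations cannot decide whether the samples are paired. With the replicate block the count that fell was 2, Pou2f2 and Pbx2, and calls over all genes went from 1066 to 636.

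Calls over all genes also changed to 521 with the variance of each gene on its own, 1933 with array weights, 1622 at an adjusted p under 0.10, 586 without both samples named above, and, leaving out tertiary glioma 1, 2 or 3, to 1857, 647 or 653. Settings were also compared for 38 of the genes named with values, and the other genes given with values were not counted. The 38 were the tested members named by the rules above and Hhex, Zfhx3, En2, Dhrs3, Rxra, Rara, Pou3f4 and Pou4f1. Over these and 20 other settings, 678 of 740 comparisons kept direction and side of the threshold, 28 lost a call, 9 gained one and 25 changed sign. All that changed sign were uncalled in the comparison reported. Leaving out each sample in turn, the log2 fold change ranged from -0.032 to 0.075 for Dlx1, -0.53 to 0.034 for Gsx1, -0.065 to 0.067 for Hoxd9, -0.12 to 0.76 for Irx1, -0.14 to 0.049 for Otx2os1, -0.47 to 0.28 for Pou3f1 and -0.72 to 0.63 for Six3. For Hoxd9 it was 0.015 with quantile normalization and 0.036 with median centring. With array weights it was 0.0060 for Hoxd9, 0.054 for Otx2os1 and -0.48 for Six3. With the replicate block it was -0.020 for Irx1 and -0.097 for Six3. Without both samples it was -0.047 for Dlx1, 0.10 for Hoxd9, 0.054 for Otx2os1 and -0.064 for Pou3f3. The cause of these changes was not tested. Dim signal limits the 47 members below the filter, for which no test was made.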
